A study of Felis catus with 3 samples.

Results

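Ion channels and G protein-coupled receptors are the membrane proteins through which a cell passes ions and senses hormones, transmitters and lipids. Gene expression was measured by strand-specific sequencing of poly-adenylated RNA in 3 noninduced feline adipose-derived mesenchymal stem cell (ASC) lines, and 39 such genes of the 21529 measured were examined. They were chosen by symbol, as genes whose names begin with set prefixes, with earlier results of these data known. Prefixes were those of the potassium, sodium, calcium, chloride, TRP, anoctamin, glutamate, GABA, nicotinic and purinergic channel families. Those of the adhesion, orphan, muscarinic, adrenergic, serotonin, prostaglandin and lysolipid receptor families were also taken. Symbols came from the study's gene table, of which 1997 rows were read here and 1811 held a symbol, so other members of these families are not analysed here. Of the 39 genes, 26 code for pore-forming or auxiliary subunits of channels or their close relatives and 11 code for receptors. Neither TRPC4AP, an adaptor protein that binds a TRP channel and also serves a ubiquitin ligase, nor HTRA4, a secreted serine protease, is a channel or receptor, although both names carry a chosen prefix.

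The lines were primary cultures from the subcutaneous fat of 3 cats, labelled Gray_Boy (Feline ASC 1), Luna (Feline ASC 2) and SPF2 (Feline ASC 3), and were numbered in the order of their deposit. All were untreated and were grown in MEMα with 10% fetal bovine serum to passages 3 to 4. Donors in the paper were either client-owned or specific pathogen-free (SPF) cats, and the paper does not state which kind gave each sequenced line. Differences between lines may thus include this source, which cannot be told apart from the donor. Each line was 1 culture of 1 cat with 1 library, the cats' ages were not given in the sources used here, and no other condition or tissue was measured, so every comparison is between donors and none can be tested against repeat libraries. Values are FPKM, fragments scaled to transcript length and to the mapped fragments of the library, which allow levels to be compared between genes. All spreads are the SD over the 3 lines.

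Stromal cells do not fire action potentials as nerve and muscle do, and their channels are known mainly for calcium entry, for setting the membrane potential during growth and migration, and for the ion balance of endosomes and lysosomes. Calcium-activated potassium channels and calcium-activated cation channels couple these functions, since a rise in cell calcium opens both. Receptors of the G protein-coupled family act through heterotrimeric G proteins on adenylyl cyclase, phospholipase C and calcium stores.

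The 39 genes were for the most part low. A total of 12 (30.8%) were listed at 0 FPKM in all 3 lines, 14 were above 0 in some line but under 1 FPKM in every line, and 13 (33.3%) reached 1 FPKM in at least 1 line. Only 9 (23.1%) reached 1 FPKM in all 3 lines, and 2 of them, TRPC4AP and CACNB3, reached 15 FPKM in all lines. Among all 21529 genes, 29.0% were listed at 0 in all lines, 53.9% reached 1 FPKM in at least 1 line, 49.6% reached it in all lines and 22.1% reached 15 FPKM in all lines. Genes with a symbol, from which the 39 were drawn, were higher than genes at large, with 14.2% at 0 in all lines, 65.7% at 1 FPKM or more in at least 1 line and 61.3% in all lines. Against those shares the channel and receptor genes held more zeros and fewer genes at 1 FPKM. The median over the 39 genes of the mean FPKM was 0.0442, against 1.57 over all genes and 5.68 over genes with a symbol. How many fragments stand behind a value is not known, and a gene listed at 0 may have been below detection.

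**Figure D1:**
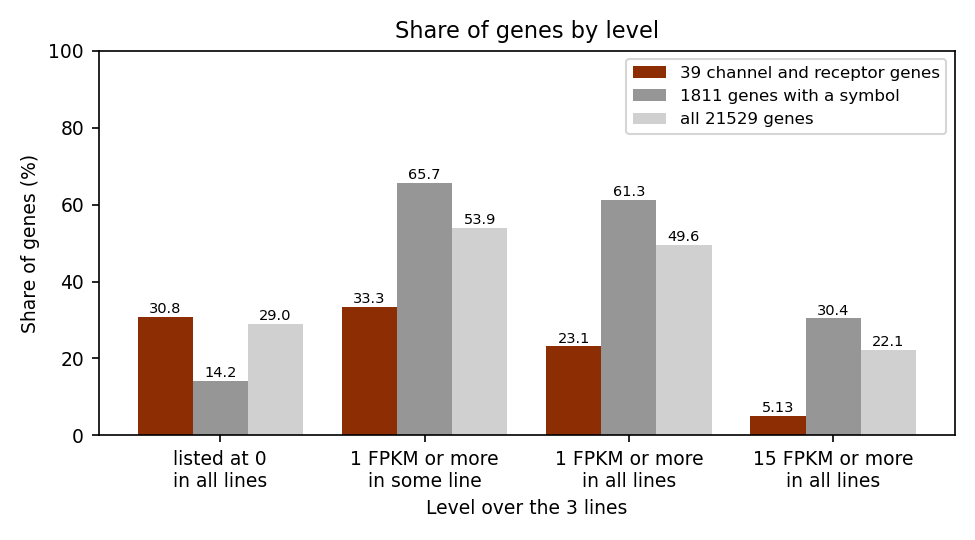
Share of genes (%) at each level over the 3 lines, for the 39 channel and receptor genes, the 1811 genes with a symbol and all 21529 genes. The 39 genes reached 1 FPKM in all lines in 23.1% of cases, against 61.3% and 49.6%.

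The CLC exchangers and the anoctamin were expressed in every line. CLCN3 and CLCN6 exchange chloride for protons in the membranes of endosomes and lysosomes, and ANO8, an anoctamin, lies where the endoplasmic reticulum meets the plasma membrane. CLCN6 (ENSFCAG00000000068, chromosome C1, 7833832 to 7866342 of Felis Catus 8.0) had 8.04, 7.65 and 8.09 FPKM in Feline ASC 1, 2 and 3, a mean of 7.93 ± 0.24 FPKM (SD, n = 3 lines). Its coefficient of variation of 3.07% was the smallest among the 13 genes with a line at 1 FPKM or above. CLCN3 (ENSFCAG00000000778, chromosome B1, 59793778 to 59875205) had 7.83, 11.1 and 9.27 FPKM, a mean of 9.40 ± 1.63 FPKM. The order of these genes was not resolved, since CLCN6 was above CLCN3 in Feline ASC 1 and below it in the other lines. ANO8 (ENSFCAG00000001006, chromosome A2, 12504384 to 12514067) was lower, with 3.46, 3.07 and 4.74 FPKM. All 3 members of this group thus passed 1 FPKM in each line, as 49.6% of all genes did, and no range reached 2-fold.

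The voltage-gated calcium channel genes were led by an auxiliary subunit rather than by a pore. CACNB3, the cytosolic beta subunit that brings high-voltage-activated calcium channels to the cell surface, had 27.1, 23.9 and 17.4 FPKM (ENSFCAG00000000080, chromosome B4, 78338128 to 78345998). Its mean of 22.8 ± 4.95 FPKM made it the highest of the 26 channel genes, at the 82.1st percentile of all genes, and its lowest line was still above the highest line of CLCN3. The pore-forming subunits were far lower. CACNA1A, the pore of the P/Q-type channel of nerve terminals, had 0.799, 1.86 and 1.44 FPKM (ENSFCAG00000000486, chromosome A2, 9159168 to 9329932), and CACNA1B, the pore of the N-type channel, had 0.902, 1.71 and 1.42 FPKM (ENSFCAG00000001217, chromosome D4, 95821118 to 96011689). Both pores were lowest in Feline ASC 1 and highest in Feline ASC 2, and their levels could not be ordered against each other. CACNG7, a gamma-type subunit known for the traffic of AMPA receptors, was listed at 0 in Feline ASC 1 and 3 and had 0.355 FPKM in Feline ASC 2. Pore genes of the L and T types were not among the 39.

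Of the 8 potassium channel genes, 2 reached 1 FPKM in at least 1 line, against 53.9% of all genes. These 2 genes belong to calcium-activated channels, and both differed between lines. KCNMB1 encodes the beta subunit that raises the calcium sensitivity of the large-conductance BK channel in smooth muscle (ENSFCAG00000000838, chromosome A1, 178853660 to 178860547). The pore gene of the BK channel was not among the 39. The level of KCNMB1 in Feline ASC 1, 2 and 3 was 4.42, 1.10 and 7.74 FPKM, a mean of 4.42 ± 3.32 FPKM. Feline ASC 3 was thus 6.53-fold above Feline ASC 2 on the FPKM + 0.1 scale used for all ranges between lines, and without Feline ASC 2 the range was 1.74-fold. KCNN4, the intermediate-conductance channel of lymphocytes, red cells and proliferating fibroblasts, was highest where KCNMB1 was lowest (ENSFCAG00000001105, chromosome E2, 11995577 to 12006769). It had 1.22, 3.12 and 1.59 FPKM, a range of 2.44-fold that fell to 1.28-fold without Feline ASC 2 and to 1.90-fold without Feline ASC 1.

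The other potassium channel genes described here were at or near 0. KCND1 and KCND3, pores of the rapidly inactivating A-type current, reached at most 0.0767 and 0.0437 FPKM, and each was listed at 0 in 1 line. KCNH4, of the EAG-related family, had 0.0166, 0.0183 and 0.0787 FPKM. Both KCNQ3, a pore of the M-type current family, and KCNK10, a mechanically sensitive leak channel, were listed at 0 in every line.

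Of 3 TRP channel genes, 1 reached 1 FPKM, where 53.9% of all genes did so in at least 1 line. This gene was TRPM4, a cation channel that opens when cell calcium rises and lets in sodium. It had 7.33, 6.12 and 5.83 FPKM (ENSFCAG00000000257, chromosome E2, 8210587 to 8244963), a mean of 6.43 ± 0.80 FPKM. It lay below CLCN6 in every line. TRPM3, a heat-sensitive channel of sensory neurons, stayed at 0.0612 FPKM or below. TRPC4AP, the adaptor, was by far the highest of the 39 genes, with 57.5, 67.3 and 59.8 FPKM and a mean of 61.5 ± 5.14 FPKM at the 92.9th percentile of all genes. Its locus (ENSFCAG00000002312, chromosome A3, 23955464 to 24035603) was the same span as that given for MYH7B, a myosin heavy chain with 6.49 to 7.27 FPKM, so the division of fragments between the pair rests on the authors' quantification. With TRPC4AP left out, the other 38 genes summed to 68.0, 68.8 and 68.7 FPKM in Feline ASC 1, 2 and 3, although single genes differed several-fold. CACNB3 alone gave 27.1, 23.9 and 17.4 FPKM of these sums. The sums are nearly equal only as FPKM, since FPKM over all genes summed to 621797, 688297 and 636464.

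**Figure D2:**
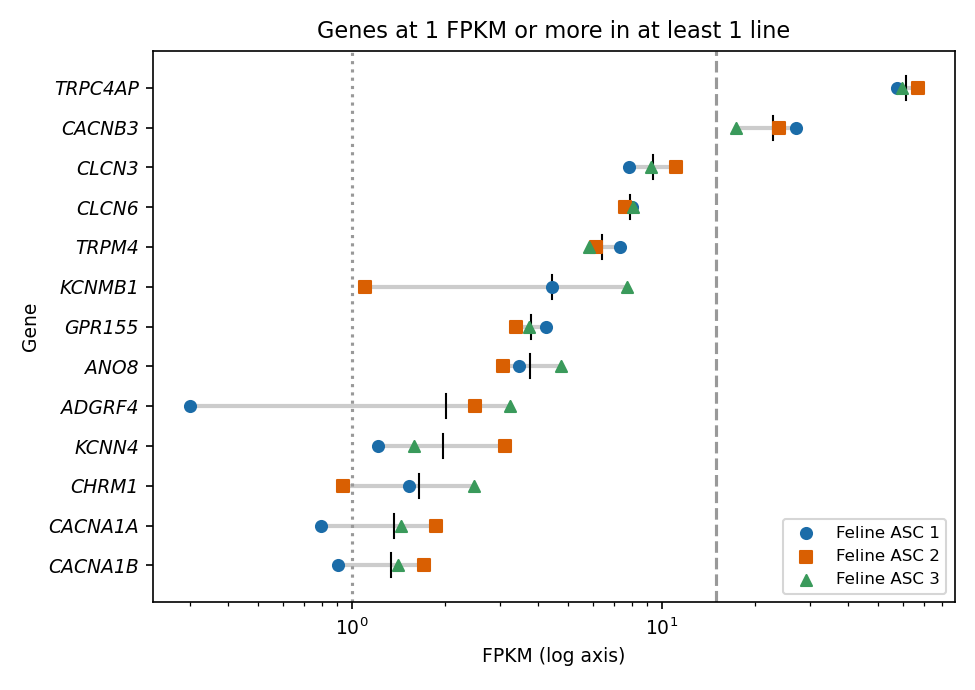
FPKM (log axis) of the 13 genes with a line at 1 FPKM or above, with 1 symbol per line, a black tick at the mean and a grey bar from the lowest to the highest line. Dotted and dashed lines mark 1 and 15 FPKM, and KCNMB1 (1.10 to 7.74 FPKM) and ADGRF4 (0.301 to 3.23 FPKM) have the widest bars.

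None of the 3 sodium channel and 5 transmitter-gated channel genes reached 1 FPKM in any line, against 53.9% of all genes. SCN9A, the sodium channel pore of pain-sensing neurons, was the highest of them, with 0.202, 0.776 and 0.353 FPKM, whereas SCN11A, another pore of those neurons, and the auxiliary subunit SCN3B were listed at 0 throughout. The nicotinic receptor subunits CHRNB4, CHRNA3 and CHRNA5, which form the acetylcholine receptor of autonomic ganglia, lie side by side on chromosome B3 from 134959 to 181597. All 3 were listed at 0 in Feline ASC 2. In Feline ASC 1 CHRNA5 had 0.153 FPKM and CHRNA3 had 0.0295 FPKM, and in Feline ASC 3 the 3 subunits had 0.0189 to 0.0293 FPKM. GABRB2, a subunit of the GABA-gated chloride channel, was listed at 0 in all lines. So was P2RX2, an ATP-gated cation channel, which was assigned to a locus of chromosome D3 (564370 to 785410) that it shared with POLE, PXMP2 and a gene without a symbol, each above 1 FPKM in every line.

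Of the 11 receptor genes, 6 were listed at 0 in all lines, against 29.0% of all genes and 14.2% of genes with a symbol. Of these 11 receptor genes, 3 reached 1 FPKM in at least 1 line, against 53.9% of all genes. GPR155, a lysosomal cholesterol sensor named as a receptor, was the only one at 1 FPKM or more in every line. It had 4.23, 3.39 and 3.74 FPKM (ENSFCAG00000000439, chromosome C1, 162765169 to 162806135), a mean of 3.78 ± 0.42 FPKM. CHRM1, the muscarinic acetylcholine receptor that couples to phospholipase C, had 1.53, 0.939 and 2.48 FPKM (ENSFCAG00000000336, chromosome D1, 108091100 to 108092483). Its range of 2.48-fold fell to 1.58-fold without Feline ASC 2 and to 1.57-fold without Feline ASC 3. GPR50, a relative of the melatonin receptors, had 0.0656 FPKM in Feline ASC 2 and was listed at 0 in the other lines. The receptors at 0 in every line included GPR39, a zinc-sensing receptor, GPR37L1 of glial cells, and GPR101 of the pituitary and hypothalamus. The others were ADGRB3 of synapses and the adhesion receptors ADGRD2 and ADGRG5. The locus of GPR39 was given only from 124277605 to 124278079 of chromosome C1, so its 0 may not stand for the whole gene.

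The adhesion receptors that were expressed, ADGRF4 and ADGRF2, are neighbours, and both were low in the same line. They belong to the subfamily of adhesion receptors found in skin and other epithelia. ADGRF4 (ENSFCAG00000002460, chromosome B2, 48136590 to 48147653) had 0.301, 2.51 and 3.23 FPKM in Feline ASC 1, 2 and 3. ADGRF2 (ENSFCAG00000002459, chromosome B2, 48104196 to 48110892) lay 25697 bases away and had 0.0297, 0.394 and 0.985 FPKM. Each was lowest in Feline ASC 1 and highest in Feline ASC 3. In RefSeq's annotation of the newer cat assembly F.catus_Fca126_mat1.0, 0 genes lay between them. The range was 8.32-fold for ADGRF4, which dropped to 1.28-fold without Feline ASC 1, and 8.37-fold for ADGRF2. The range of ADGRF2 depends on its 0.0297 FPKM in Feline ASC 1, which may stand for very few fragments. ADGRF2 stood just under the 1 FPKM limit in its highest line. No epithelial marker of the 6 listed (such as EPCAM and KRT8) had a symbol in the rows read, so the part of epithelial cells in this difference was not tested.

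**Figure D3:**
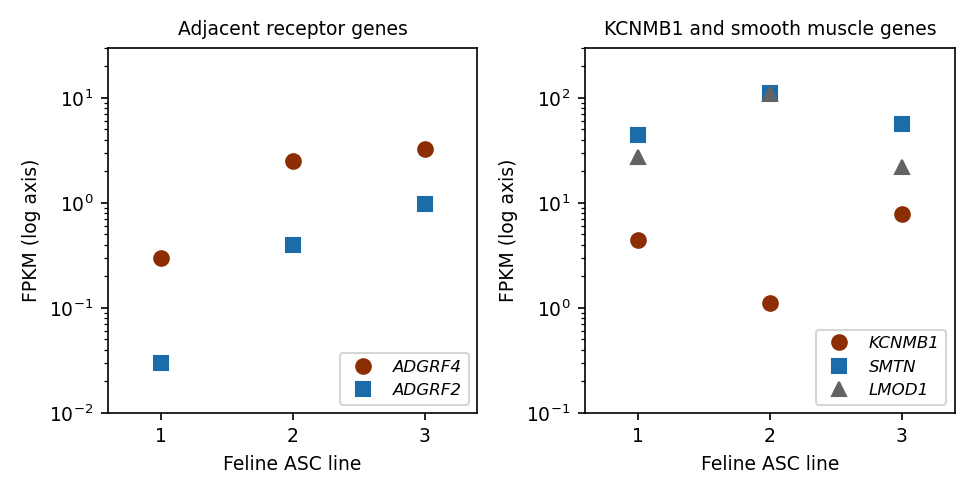
FPKM (log axis) in each line of the adjacent receptor genes ADGRF4 and ADGRF2, left, and of KCNMB1 with the smooth muscle genes SMTN and LMOD1, right. Both receptors were lowest in Feline ASC 1, and KCNMB1 was lowest in Feline ASC 2 (1.10 FPKM), where SMTN and LMOD1 were highest (112 and 109 FPKM).

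Of the 13 genes that passed 1 FPKM, 5 had a range of 2-fold or more between lines (38.5%), namely ADGRF4, KCNMB1, CHRM1, KCNN4 and CACNA1A. Over all 11601 genes at this level the share was 16.2%. Ranges are wider among low genes, and of genes whose highest line was at 1 to 10 FPKM 26.0% had such a range, against 5 of the 10 channel and receptor genes in that band. With 1 library per line, neither share could be tested, and 1 line decided most of the 5. Without Feline ASC 1 only CHRM1 and KCNMB1 kept a 2-fold range, and without Feline ASC 2 only ADGRF4 did. With 1 in place of 0.1 added to each value, ADGRF4 and KCNMB1 were left. Between pairs of lines, 4 of the 13 genes differed 2-fold between Feline ASC 1 and 2 (ADGRF4, CACNA1A, KCNMB1 and KCNN4). Feline ASC 2 and 3 differed so in CHRM1 and KCNMB1, and Feline ASC 1 and 3 in ADGRF4. In the same pairs, 11.3%, 10.9% and 5.26% of all genes at 1 FPKM or more differed 2-fold. CACNA1A had a range of 2.19-fold, just past the limit, and CACNA1B, at 1.81-fold, just missed it.

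**Figure D4:**
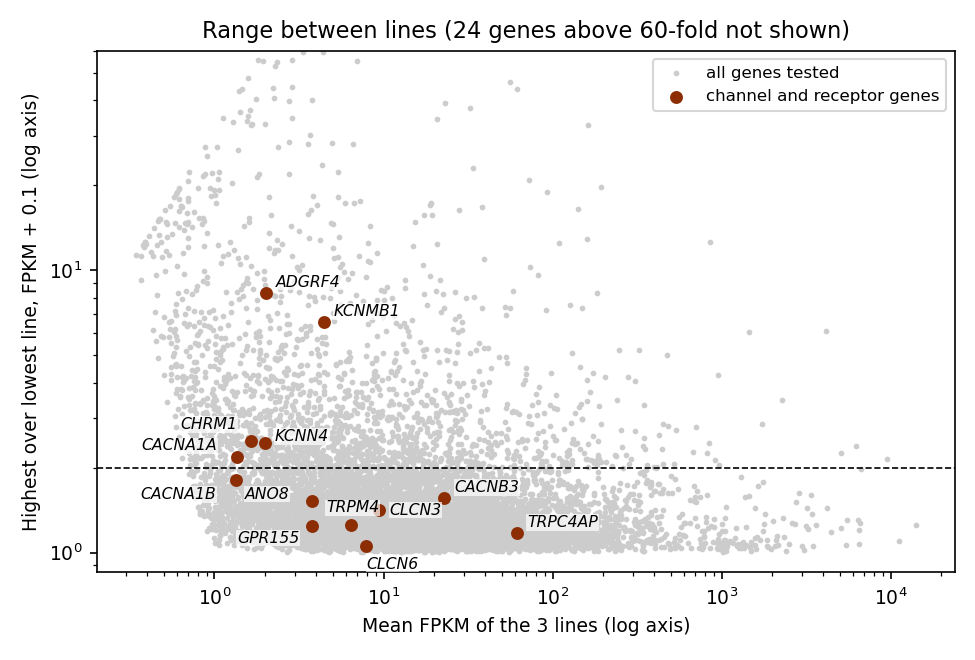
Range between lines (highest over lowest FPKM + 0.1, log axis) against mean FPKM (log axis) for the 11601 genes at 1 FPKM or more in at least 1 line, with the 13 channel and receptor genes named. The dashed line marks 2-fold, and 5 of the 13 lie above it, ADGRF4 (8.32) and KCNMB1 (6.53) the farthest.

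For some of the lowest genes the values stood in the ratios of small whole numbers of fragments. At such levels the ratio of a gene's FPKM between libraries can take a few fixed values, set by what 1 fragment is worth in each library. Over the other genes under 0.15 FPKM, that worth was 0.911 times as large in Feline ASC 1 as in Feline ASC 2, 1.28 times as large in Feline ASC 1 as in Feline ASC 3 and 1.40 times as large in Feline ASC 2 as in Feline ASC 3. Of 660, 781 and 697 such genes, 22.0%, 11.9% and 9.90% had a ratio within 1% of these. Among the channel and receptor genes, KCNH4 in Feline ASC 1 and 2, CHRNA3 in Feline ASC 1 and 3, and KCND3 in Feline ASC 2 and 3 had this ratio within 1%, as equal fragment numbers in both libraries would give. KCNH4 in Feline ASC 3 was 6 times its value in the other lines in these units, and HTRA4 in Feline ASC 3 was 4 times its value in Feline ASC 2. KCND1 in Feline ASC 1 and 2 stood at 3 to 2. Other low genes, among them TRPM3 and CHRNA5, stood at no ratio of whole numbers up to 6 within 1%. For ADGRF2, Feline ASC 1 stood at 0.0827 of Feline ASC 2 and 0.0236 of Feline ASC 3 in these units. Both lie below 1 to 6, so this search could not match them, and its value in Feline ASC 1 may rest on very few fragments. KCNH4, CHRNA3, KCND3, HTRA4 and KCND1, and the 3 genes above 0 in a single line (CACNG7, GPR50 and CHRNB4), may rest on very few fragments, and no order of the lines is read from them.

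**Figure D5:**
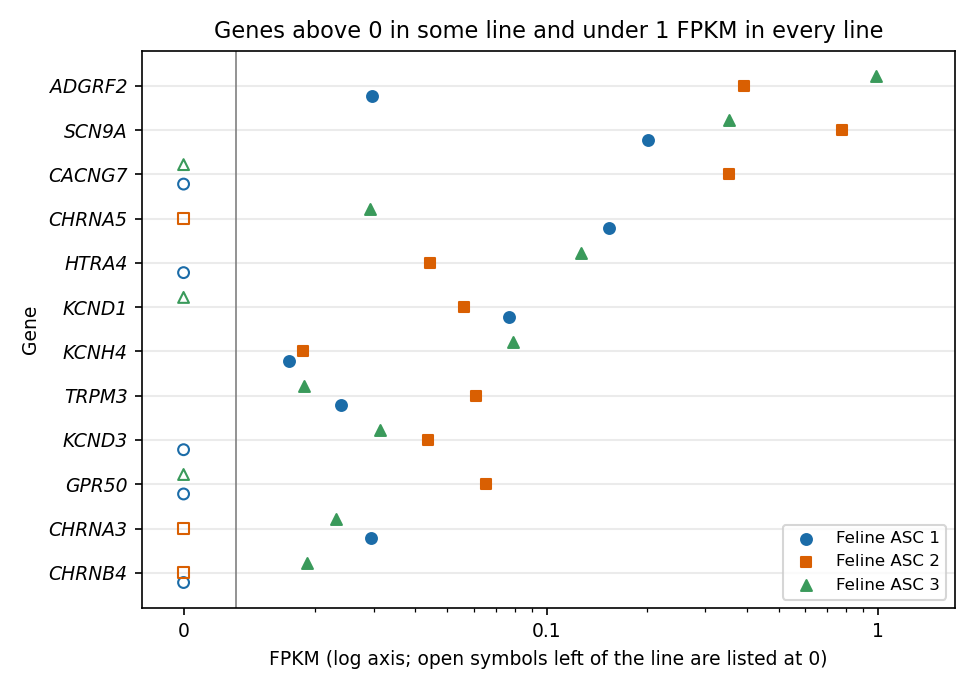
FPKM (log axis) in each line of 12 genes above 0 in some line and under 1 FPKM in every line, with open symbols at the left for values listed at 0. ADGRF2, SCN9A and CACNG7 exceed 0.2 FPKM in some line, and the other 9 genes stay at 0.153 FPKM or less.

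Other channels and receptors with a symbol lay outside the chosen prefixes. The lists of this paragraph were chosen with earlier results of these data known. Of 17 other receptors, from the angiotensin receptor AGTR1 to the chemokine receptor CCR4, 0 reached 1 FPKM in all lines and 7 were listed at 0 throughout, where 49.6% and 29.0% of all genes did so. Of 11 other channels, 4 reached 1 FPKM in all lines and 2 were listed at 0 throughout. PKD1 and PKD2, the polycystins, had 31.6 ± 6.94 and 25.1 ± 2.60 FPKM, ITPR1, the calcium release channel of the endoplasmic reticulum, had 13.7 ± 6.08 FPKM, and TPCN2, a lysosomal cation channel, had 11.5 ± 1.39 FPKM. Among the genes that carry receptor signals onward, 10 of 18 passed 1 FPKM in each line, a share near those of all genes (49.6%) and of genes with a symbol (61.3%). The phospholipases PLCD1 and PLCB3 had 49.7 ± 3.57 and 21.4 ± 5.08 FPKM, the adenylyl cyclase ADCY6 had 15.8 ± 3.57 FPKM and the receptor kinase GRK6 had 14.5 ± 2.53 FPKM. The phosphodiesterases PDE3A and PDE7A had 11.7 ± 2.79 and 5.66 ± 3.10 FPKM, and the G protein regulators RGS7 and RGS19 had 11.1 ± 3.47 and 1.60 ± 0.25 FPKM. GNAZ, a G protein alpha subunit, had 3.10, 1.99 and 7.18 FPKM, and GNG10, a gamma subunit, had 6622 ± 900 FPKM at a locus given only from 74027522 to 74027648 of chromosome D4. Because FPKM is scaled to length, a value at so short a locus is not compared with those of the other genes.

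Cell type markers were few among the symbols read. The stromal genes ENG and COL5A1 (2 of 10 listed) had 72.5 to 117 and 178 to 480 FPKM. Of the leukocyte markers, 4 of 9 could be read (CD14, CORO1A, CD2 and ITGB2) and summed to 0.598 to 1.96 FPKM, with CD2 listed at 0 in all lines. The endothelial marker TEK (1 of 5) stayed at 0.0595 FPKM or less, and RBFOX3, of the 8 neuronal and glial markers, had 0.488 to 0.740 FPKM. No adipocyte marker of 5 could be read. The smooth muscle genes SMTN and LMOD1 (2 of 6) summed to 72.1, 221 and 78.3 FPKM in Feline ASC 1, 2 and 3, whereas KCNMB1, itself known from smooth muscle, was lowest in Feline ASC 2. The part of cells of that kind in the range of KCNMB1 was not tested, and in bulk cultures fewer cells of a type and less RNA per cell cannot be told apart.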

How the data were processed

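Reads were mapped by the authors with HISAT to Felis Catus 8.0. Cufflinks served to quantify each gene and Cuffnorm to normalize across the 3 libraries (named without versions in the submitters' processing notes). The annotation and the Cuffnorm method are not given in the sources used here. The deposited values are FPKM for 21529 genes and were used as they stand, with no filter except for ranges between lines, which cover genes at 1 FPKM or more in at least 1 line and use FPKM + 0.1. FPKM sums were 621797, 688297 and 636464 in Feline ASC 1, 2 and 3. They are not counts, and the paper gives only an approximate number of reads per sample. The depth of each library is thus known only as the relative steps of low values, and no interval or floor is given. Symbols and loci come from the study's gene table, whose values were not read.

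All 39 genes enter the counts, and those at 1 FPKM or more in some line are given with each line's value. A few low genes are not reported here. The genes and lists were chosen with earlier results of these data known. Low genes of the other lists are given as counts. All lines have 1 condition, so no test was run. Computations used Python 3.11.15, pandas 2.3.3, numpy 2.4.6 and matplotlib 3.10.9 and were tested on simulated data. Range calls were checked there only in genes with higher means than the channel and receptor genes with a 2-fold range. The alternatives were other scalings (TPM, quantile), thresholds, pseudocounts and leaving out each line.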

Additional observations from a re-analysis of the deposited data

How the results depend on the processing

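No paired analysis was possible because all 3 libraries belong to 1 group and no comparison between groups exists. The counts of genes at 1 FPKM or more stayed within 1.5 times under each alternative tried, from 7 to 13 genes for all lines (9 as reported). The 12 genes listed at 0 became 20 when every gene under 0.1 FPKM in all lines was counted. The 2 genes at 15 FPKM became 1 with a threshold 1.5 times higher. The 5 genes with a 2-fold range became 2 with a pseudocount of 1, 2 at 3-fold and 11 with no filter on low values, and leaving out 1 line gave 1 to 4. The cause of these shifts was not tested. The median FPKM of 0.0442 rose to 0.0682 with each library rescaled to a sum of 1000000, and the mean in its place, 3.33 FPKM, was raised by a few high genes. Leaving out 1 line changed no other count beyond 1.5 times. Of 78 recomputed ranges of single genes, 67 stayed on their side of 2-fold and 11 fell under it. All 11 belonged to the 5 genes with a 2-fold range. The other genes were under 2-fold from the start and stayed there, so the pooled count overstates how stable the 5 were. The band of 1 to 10 FPKM was added after seeing the data and left 5 genes with a 2-fold range. Depth limits what a listed 0 can mean, and the number of lines limits every spread.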

Other observations

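Of the genes of the receptor, channel and signalling lists at 1 FPKM or more in some line, a 2-fold range between lines was found for 1 of 1 other receptors (ACKR2), 3 of 6 other channels (AQP3, ITPR1 and RYR1) and 2 of 10 signalling genes (GNAZ and PDE7A), named here after their values were seen. The share was 16.2% over all genes at this level and 26.0% over genes whose highest line was at 1 to 10 FPKM. Among the cell type markers, COL5A1 (2.69-fold), SMTN (2.51-fold) and LMOD1 (4.92-fold) had such a range as well, each highest in Feline ASC 2. RYR1, the calcium release channel of skeletal muscle, had 0.772, 4.31 and 3.77 FPKM in Feline ASC 1, 2 and 3, and was thus lowest in the same line as ADGRF4 and ADGRF2. ITPR1 had 11.5, 20.5 and 8.97 FPKM and PDE7A had 3.81, 9.24 and 3.93 FPKM, and both were highest in Feline ASC 2, as KCNN4 was. ACKR2, a scavenging chemokine receptor, had 1.31, 0.116 and 0.570 FPKM and GNAZ had 3.10, 1.99 and 7.18 FPKM, and both were lowest in Feline ASC 2, as KCNMB1 and CHRM1 were. Over all genes, 1874 had a 2-fold range, of which 757 were highest and 851 lowest in Feline ASC 2, and 491 lowest in Feline ASC 1. Feline ASC 2 was thus at 1 end of the range in most such genes, and no link between the named genes is read from a shared line. AQP3, a water and glycerol channel, had 0.663, 0.458 and 1.04 FPKM.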
